A study of Drosophila melanogaster with 4 samples.

Results

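The achaete-scute complex is a cluster of 4 proneural genes near the tip of the X chromosome of Drosophila melanogaster, namely ac (achaete, Dmel_CG3796), sc (scute, Dmel_CG3827), l(1)sc (lethal of scute, Dmel_CG3839) and ase (asense, Dmel_CG3258). It was examined through the window X:100000-600000 of FlyBase release 5, 500001 bp long, set by position alone. The members are the regions enriched for H3K27me2 that share at least 1 bp with this window. There were 24 of 10114 regions in ChIP replicate 1, 15 of 10115 in ChIP replicate 2 and 57 of 16728 in the list deposited for the series. These counts were near those per 500 kb of the rest of X, which were 26.5, 17.2 and 56.7.

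The proteins of the complex are basic helix-loop-helix transcription factors that pair with Daughterless and give ectodermal cells the ability to become neural. In flies ac and sc are known for placing the sensory bristles, l(1)sc for embryonic neuroblasts and ase for neural precursors that are already committed. The complex is a long-known target of Polycomb repression. H3K27me2 is the dimethyl form of lysine 27 of histone H3, placed by Polycomb repressive complex 2, which also makes the trimethyl form that marks repressed Polycomb targets.

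The chromatin came from nuclei of heads, taken by sieving from adults (stage Mixed Adult) of the wild-type strain Oregon-R, fixed with formaldehyde and precipitated with the antibody Ab24684. The 2 ChIP replicates form 1 group, there are 2 inputs numbered to match, and the design has no mutant or treatment. The sex of the flies is not in the labels, nor is it said whether the replicates were separate collections, and their spread may then be technical. A head holds many cell types, so a larger share of nuclei with the mark and more of the mark per nucleus cannot be told apart, and with regions alone the tissue could not be checked by marker genes.

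The lists hold positions and scores but no gene names, and no annotation of release 5 was used here, so no region is assigned to a gene. The 4 genes were found by symbol in a RefSeq gene table of release 6, from which only names and order were taken. In that order y (yellow, a cuticle pigment gene) and the non-coding RNA lncRNA:yar come just before ac. Between ac and sc lie 3 long non-coding RNA genes, l(1)sc follows sc directly, and Pgcl lies between l(1)sc and ase. After ase come Cyp4g1, a cytochrome P450 gene of cuticular hydrocarbon synthesis, and ebo.

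Most of the H3K27me2 of the window lay in 1 block with long empty stretches on both sides. In the series list, regions with no gap of 20 kb or more between them were joined into runs, and one run stretched over 163 kb, from X:200585 to X:363890. It held 41 of the 57 regions and 72.2% of the covered bases of the window, on 32.7% of its length. To its left no region was listed for 95.5 kb (X:105080 to X:200584) and to its right for 143 kb (X:363891 to X:507016). In the series list the same run results from any minimum gap above 5919 bp, its longest inner gap. This holds up to 95505 bp, the shorter of the 2 flanking gaps. Neither replicate alone formed this run by the 20-kb rule. An inner gap of 38.1 kb in replicate 1 and one of 58.6 kb in replicate 2 split it.

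**Figure D1:**
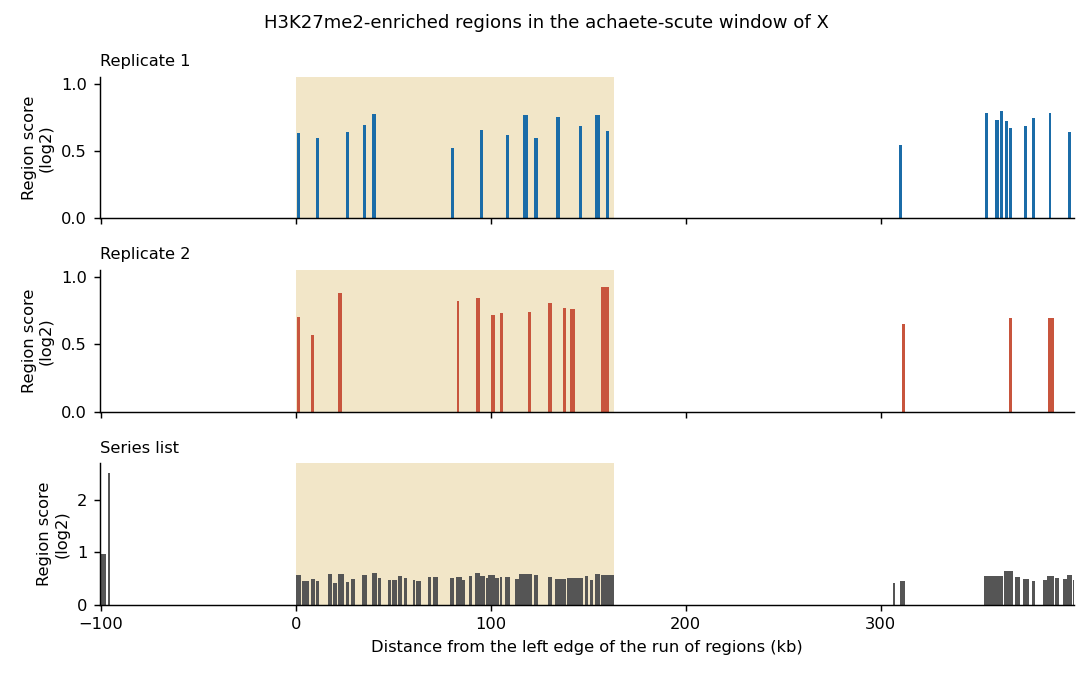
Enriched regions of replicate 1, replicate 2 and the series list across the window. Each bar is a region, its width the length of the region and its height the authors' score (log2), against the distance from the left edge of the run in kb; the shaded band is the run of 163 kb, and the score axes differ between lists. In all 3 lists regions begin near the left end of the shaded run and stop near its right end, with a stretch of 38.1 kb inside it empty in both replicates, and the sequence on its right is empty for 143 kb or more.

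Both replicates placed the ends of this block at nearly the same bases. Replicate 1 began at X:201325 and ended at X:361131, a span of 159.8 kb with 14 regions. Replicate 2 began at X:201107 and ended at X:361101, a span of 160.0 kb with 12 regions. The left ends thus differed by 218 bp and the right ends by 30 bp. The series list reached 740 and 522 bp farther on the left than replicates 1 and 2, and 2759 and 2789 bp farther on the right.

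By the measure used here, most edges elsewhere on X differed more between the replicates. On X the series list had 176 gaps of at least 20 kb between runs, with 349 other edges that could be placed in both replicates. The median difference between replicates was 18.6 kb, with quartiles at 4437 and 62148 bp. An edge of a replicate was its nearest region end on that side of the middle of the gap. Where a replicate had no region in a run, its edge therefore came from outside that run. One such edge, at X:4554646, where replicate 2 had no region in the run, gave 366397 bp. The figures for the other edges thus partly reflect missing calls, while the 163-kb run had regions of both replicates. The difference was at most 1 kb for 32 of the 349 edges (9.17%), at most 218 bp for 11 and at most 30 bp for 2. Among 80 runs of at least 50 kb with both edges placed, the larger of the 2 differences was 218 bp for the 163-kb run, against a median of 22.2 kb and a lowest value of 503 bp for the other 79. Some of the 79 also lacked regions of 1 replicate. In X:10546333-10596466 replicate 2 had none, and the larger difference was 223896 bp. The edge measure was chosen after the values were seen, so these figures are a description without a test.

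**Figure D2:**
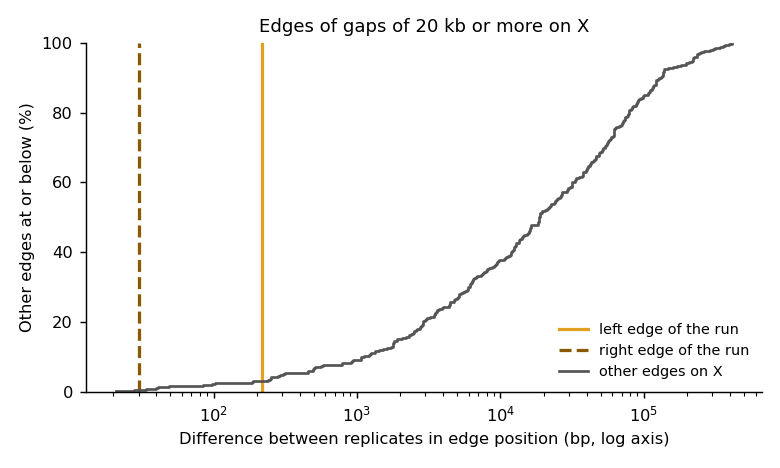
Difference between replicates in the position of an edge (bp, log axis) for the left and right edges of the 163-kb run (vertical lines, at 218 and 30 bp) and for the 349 other edges of gaps of 20 kb or more on X (step line, percent of edges at or below each difference). At 1 kb the step line stands at 9.17%. The step line includes edges of runs in which a replicate had no region.

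Within these shared limits the replicates listed mostly different pieces. Regions of replicates 1 and 2 covered 15.2% and 14.6% of the run, and only 3215 of the 45451 bases covered in either were covered in both, a Jaccard index (bases in both over bases in either) of 0.0707. The run had 3 overlapping pairs of regions, of which 2 lay at its ends. The first region of replicate 1, X:201325-202890, shared 1462 bp with the first of replicate 2, X:201107-202786. The last region of replicate 1, X:359431-361131, shared 1671 bp with the last of replicate 2, X:357211-361101. The other pair, X:317028-319703 and X:319622-321173, shared 82 bp.

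Outside the run the window had 2 further pairs, at X:566550-567929 with X:566483-567959 and at X:586804-588210 with X:586407-589262. In all, 5 of 24 regions of replicate 1 (20.8%) shared a base with replicate 2, against 33.4% of its 1164 regions on the rest of X. Of the regions of replicate 2, 5 of 15 (33.3%) shared a base with replicate 1, against 52.6% of 755 on the rest of X. The Jaccard index was 0.0954 in the window and 0.155 on the rest of X. Regions of one replicate mostly lay near one of the other, as all 15 of replicate 2 were within 5 kb of one of replicate 1, against 81.3% on the rest of X. For replicate 1 this held for 17 of 24 (70.8%), against 61.5%. By median distance replicate 2 went the other way, with 794 bp in the window and 0 bp on the rest of X. Replicate 1 had 1651.5 bp and 2311 bp.

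Cover varied along the run and was lowest left of its middle. In 4 equal parts of the run, from left to right, replicate 1 covered 19.0%, 4.88%, 13.7% and 23.3% of the bases. Replicate 2 covered 14.1%, 0%, 20.5% and 23.8%. The series list covered 65.0%, 51.6%, 73.1% and 75.5%. All 3 lists had their lowest value in the second part and their highest in the fourth.

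Within this second part (X:241412-282237) lay a stretch without regions in either replicate, from X:241936 to X:280017 (38.1 kb). In replicate 1 it lay between X:239704-241935 (score 0.77) and X:280018-281485, which had the lowest score of that replicate in the window, 0.52. In replicate 2 alone it was longer, from X:224496 to X:283059 (58.6 kb). The series list had 9 regions wholly inside the shared stretch, which covered 49.8% of it. Their scores ran from 0.46 to 0.55 with a median of 0.51, against a median of 0.53 for the other 32 regions of the run, so the gap of the replicates was no gap in the series list. Of the 41 regions of the run in that list, 5 touched both replicates, 16 touched 1 and 20 touched neither.

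**Figure D3:**
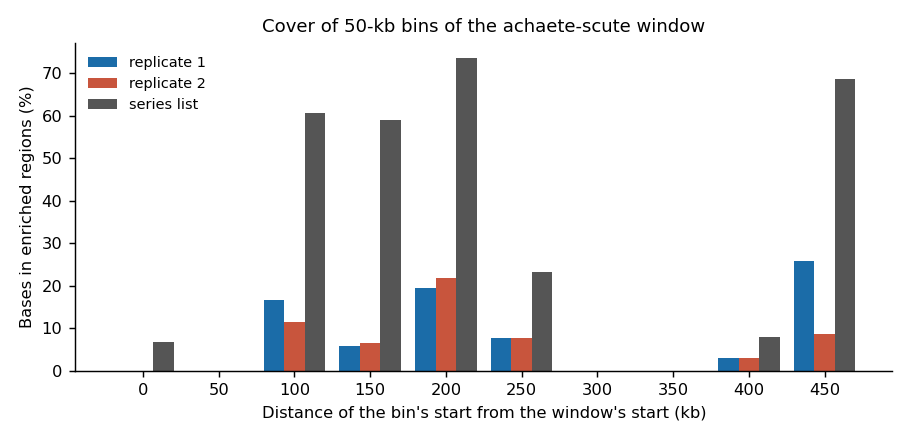
Percent of bases in enriched regions in 50-kb bins of the window, by list, against the distance of each bin's start from the start of the window (kb). The bins at 50, 300 and 350 kb are at 0 in all 3 lists, and the series list reaches 73.5% in the bin at 200 kb, where replicates 1 and 2 reach 19.5% and 21.8%.

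Among long runs of the X chromosome the run stood high in cover in the series list, but not in replicate 1, and low in score in the series list. It ranked 27 of 81 runs of at least 50 kb by length (their median was 130 kb) and 14 of 81 by number of regions. Its regions in the series list covered 66.3% of it, rank 6 of 81, where the median was 49.1% and the range 17.7% to 89.0%. Replicate 1 covered 15.2% of it, rank 51 of 81 and below the median of 16.7%, and replicate 2 covered 14.6%, rank 20 of 81, where the median was 9.80%. Its longest inner gap in the series list, 5919 bp, was smaller in only 2 of the runs, whose median was 14048 bp. Its median score of 0.52 ranked 63 of 81, with a median over runs of 0.54. Both flanking gaps were at least 95.5 kb, which held for 1 of the 79 other long runs that have a gap on each side, and the shorter flanking gap of those runs had a median of 27.1 kb. The length limit of 50 kb was chosen after the values were seen, and runs are not replicates, so no test was made.

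**Figure D4:**
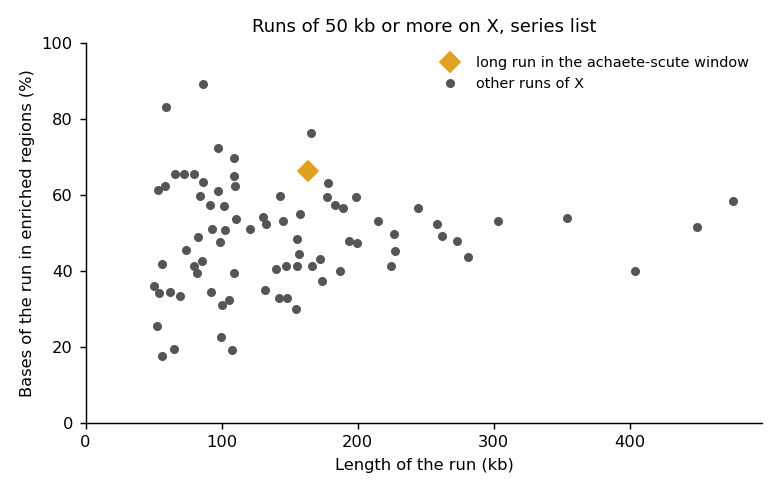
Length (kb) and percent of bases in enriched regions for the 163-kb run of the achaete-scute window (diamond, 66.3%) and the other runs of at least 50 kb on X (circles), from the series list. Of the 81 runs, 5 lie above the diamond.

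The empty flanks were also empty in each replicate. This adds little, because the series list held 98.2% and 99.0% of the window's bases of replicates 1 and 2. Right of the run, replicate 1 had no region from X:361132 to X:509886 (148.8 kb) and replicate 2 none from X:361102 to X:511700 (150.6 kb). On X this block ranked 17 of 1189 uncovered blocks by length for replicate 1, 23 of 771 for replicate 2 and 6 of 2541 for the series list. Median block lengths on X were 5837 bp (replicate 1), 8565 bp (replicate 2) and 1521 bp (series list). By its longest block empty in both replicates (148.8 kb), the window ranked 11 of 44 windows of 500 kb. The other windows had a median of 100319 bp and a highest value of 284697 bp. Blocks of 20 kb or more took 66.2% of the window and 65.7% of X for replicate 1. These shares were 74.9% and 79.0% for replicate 2, but 55.8% and 39.6% by the series list. Left of the run, replicate 1 had no region from X:94836 to X:201324 (106 kb) and replicate 2 none from X:91634 to X:201106 (109 kb), ranks 28 and 49 on X. A stretch without a region is sequence that the authors did not list as enriched, and whether reads could be aligned there is not recorded.

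The series list had 2 regions at the far end of the left flank, X:100854-103292 and X:104079-105079. Neither touched a region of a replicate, and they had the highest scores of the window in that list, 0.96 and 2.52. From the values, a score is log2 of a ratio of 2 whole numbers minus a constant of its list. These numbers are taken here for reads of the ChIP (upper) and of its input (lower), in lowest terms, although the sources do not say so. Read so, the score of 2.52 is a ratio of 13 to 2, with a counting error of at most 1.10 on the log2 scale, and the region is 1001 bp long. For the window's regions the median counting error was at most 0.21 (replicate 1), 0.19 (replicate 2) and 0.14 (series list), which covers counting alone and no copying by PCR.

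A small island stood beyond the right flank, and all 3 lists held it. The series list had 3 regions from X:507017 to X:513174 with scores of 0.42, 0.45 and 0.46. Replicate 1 had X:509887-511366 (score 0.54) and replicate 2 had X:511701-513157 (score 0.65), which did not overlap. After another gap of 40.3 kb in the series list, to X:553426, came a run that goes past the window to X:811905.

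The replicates differed at the start of this last run. Replicate 1 had 9 regions in its first part, X:553427-600000, and covered 27.8% of it, while replicate 2 had 2 regions and covered 9.30%. In the run of 163 kb the counts were 14 and 12. Over the whole of the last run, to X:811905, the replicates were closer, with 24 and 18 regions and 20.4% and 14.9% cover. Replicate 1 also had more regions than replicate 2 on the rest of X, 1164 against 755. The longest region of the window in the series list, X:553427-563283 with 9857 bp and a score of 0.56, held 3 regions of replicate 1 and none of replicate 2. The first region of this run was X:554215-555547 in replicate 1 and X:566483-567959 in replicate 2, so that this edge differed by 12268 bp.

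The highest scores of the replicates fell in different places. In replicate 1 the top 5 were 0.80 at X:561799-563200, 0.79 at X:586804-588210, 0.79 at X:554215-555547, 0.77 at X:239704-241935 and 0.77 at X:354285-356497, so that 3 of them lay in the last run. In replicate 2 all 5 lay in the run of 163 kb, with 0.92 at X:357211-361101, 0.88 at X:221973-224495, 0.84 at X:292992-294934, 0.82 at X:283060-284426 and 0.81 at X:329820-331862. The region with 0.92 was also the longest of replicate 2 (3891 bp) and ended the run on the right. Next in length in replicate 2 came X:586407-589262 (2856 bp), X:221973-224495 (2523 bp), X:341425-343520 (2096 bp) and X:329820-331862 (2043 bp). The longest of replicate 1 was X:317028-319703 (2676 bp, score 0.77), followed by X:239704-241935 (2232 bp), X:354285-356497 (2213 bp), X:334067-336200 (2134 bp) and X:322903-324781 (1879 bp). All 5 of replicate 1 and 4 of the 5 of replicate 2 thus lay in the run of 163 kb. Of all their regions in the window, 14 of 24 and 12 of 15 lay there. In the series list the highest scores after the 2 distal regions were 0.64 at X:563945-568328, 0.61 at X:292693-294921 and 0.60 at X:239484-242102.

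The longest regions of the series list after X:553427-563283 lay in the third and the fourth part of the 163-kb run. They were X:339497-348131 (8635 bp, score 0.52), X:357017-363890 (6874 bp, 0.58), X:315277-321841 (6565 bp, 0.58) and X:333432-339275 (5844 bp, 0.50), and each of these 4 touched both replicates. The median region of the series list was 2224 bp long in the window, against 1906.5 bp on the rest of X. It was 1474 bp, against 1864 bp, for replicate 1, and 1687 bp in both places for replicate 2.

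Over its whole length the window was covered less than the rest of X in both replicates, and about as much in the series list. The mean difference was smaller than its SD, which rests on 2 values. Replicate 1 covered 7.85% of it, against 11.8% of the bases on the rest of X, and replicate 2 covered 5.92%, against 6.47%. The mean was 6.89% ± 1.37 in the window and 9.14% ± 3.78 on the rest of X (SD, n = 2), a difference of -2.25 ± 2.42 percentage points. The series list covered 30.0% of the window and 29.7% of the rest of X. Among 44 windows of 500 kb, its cover ranked 34 by replicate 1, 24 by replicate 2 and 23 by the series list. An exact sign-flip test of the differences in the 2 replicates gave a two-sided p of 0.5, the smallest that 2 replicates allow. It could therefore not detect a difference, and it does not show that the cover was equal. Windows were ranked without a test, since neighbouring windows are not independent.

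**Figure D5:**
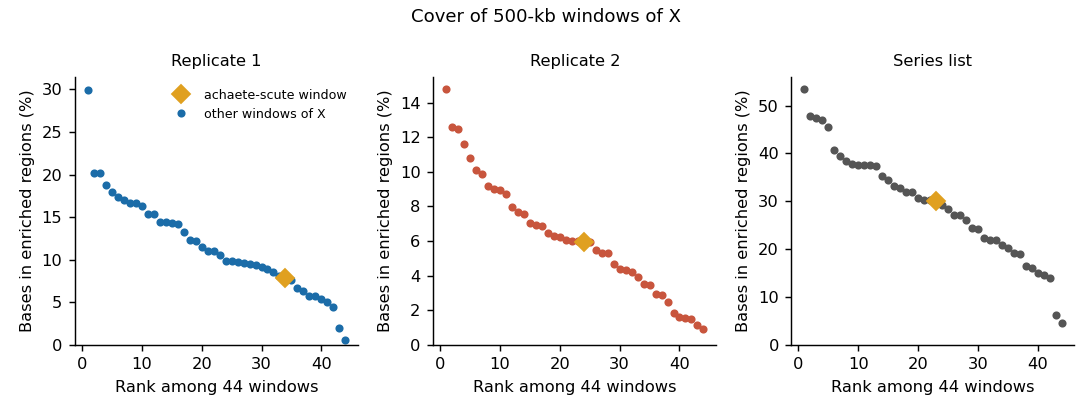
Percent of bases in enriched regions for 44 windows of 500 kb along X, sorted from highest to lowest in each list; the diamond is the achaete-scute window and the circles are the other 43. The diamond lies at 7.85% in replicate 1, 5.92% in replicate 2 and 30.0% in the series list.

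The regions of the window scored slightly below those of the rest of X in each list. In replicate 1 the median score was 0.69 in the window and 0.78 on the rest of X. Replicate 2 gave 0.74 in the window and 0.77 on the rest of X, and the series list 0.52 and 0.54. The difference of medians was -0.062 ± 0.044 over the replicates (SD, n = 2). An exact sign-flip test gave a two-sided p of 0.5, again the smallest that 2 replicates allow, so it could not detect a difference. Scores above the median of the whole list were held by 14 of 24 regions of replicate 1 (58.3%), against 82.1% on the rest of X. In replicate 2 they were held by 14 of 15 (93.3%), against 92.2%, so the replicates differed in this count. Within the run of 163 kb the regions of replicate 1 had a median of 0.66 and those of replicate 2 one of 0.77.

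The series list held nearly all that the replicates held in the window, and much more. It contained 98.2% and 99.0% of the window's bases of replicates 1 and 2. Of its own 150005 bases there, both replicates covered 4.00%, a single one 37.3% and neither 58.7%, against 8.25%, 41.7% and 50.0% on the rest of X. By regions, 7 of 57 touched both replicates (12.3%), 22 touched 1 and 28 touched neither (49.1%), against 14.2% and 48.7% touching both and neither on the rest of X. The 7 regions were 5844 bp long at the median and scored 0.56, and the 28 were 1943.5 bp long and scored 0.50. The rest of X had the same order, with 4651.5 bp and 0.62 for regions touching both. Those touching neither had 1405 bp and 0.52 there.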

How the data were processed

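ChIP-seq of H3K27me2 in adult head nuclei was analysed from the deposited region lists of the 2 ChIP replicates and of the series (3 lists). The 2 inputs enter through the authors' region calls alone. Bowtie 0.12.7 is named per the submitters' processing notes. Per the file headers, coordinates are FlyBase release 5. The caller of the regions, its cutoff and how the series list was made from the replicates are not given in the sources used. The score that the authors deposited for each region is, from its values, on a log2 scale, though no header states one. Thus 100% of the distinct scores of each replicate and 99.97% of those of the series list were log2 of a ratio of whole numbers after a constant per list (relative tolerance 1e-12, denominators up to 20000, in steps from the most frequent score). Scores were compared within 1 list. The depth of the libraries is unknown.

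Cover was counted base by base (Python 3.11.15, numpy 2.4.6), and the code was checked on made-up regions. The rest of X is X outside the window, and the 500-kb windows start at the window's start. Named regions were those bounding a gap of 20 kb or more, the 5 longest and the 5 highest-scoring per list. The window, members and lists were chosen with earlier results of these data known. Runs, their 4 parts and edge differences were added after the values were seen. A list of pathway genes was not placed, for want of an annotation of release 5.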

Additional observations from a re-analysis of the deposited data

How the results depend on the processing

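Of 28 alternative values, 19 kept the direction of the reported value and lay within the spread of the replicates (for numbers of regions, within 1.5 times). With 2 replicates, each one always lies within their SD of the mean. For cover and median score, the values with 1 replicate left out therefore could not fall outside the spread. The difference in cover between the window and the rest of X, -2.25 percentage points, was 0.276 in the other direction with the series list, and the cause was not tested. It ranged from -3.96 to -0.545 when 1 replicate was left out, and was -2.98 for scores above the median, -2.46 after merging, -0.995 in the window narrowed by 100 kb on each side and -2.06 without the proximal 2 Mb. The difference in median score, -0.062, stayed below 0 in each alternative that was run, between -0.0928 and -0.0188. The longest block without regions, 148.8 kb, was 143 kb in the series list, 150.6 kb for scores above the median, 138.9 kb in the narrowed window, which cuts it off, and 148.8 to 150.6 kb with 1 replicate left out. The Jaccard index of 0.0954 was 0.0585 for scores above the median, 0.0947 after merging and 0.0707 in the narrowed window. The number of regions, a mean of 19.5, was 57 in the series list and ranged from 15 to 24 with 1 replicate left out. Scores were not recomputed for merged regions, so the median score was not run there. No paired analysis was possible because of the 2 groups with shared numbers, ChIP and input, the inputs have no values here; the window and the rest of X were compared within each replicate. Library depth is unknown, and as the terms of a score are in lowest terms, its counting error is an upper limit.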
